A study of Homo sapiens with 34 samples.

Results

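The enzymes that write, copy and remove DNA methylation were followed through the cytokine-free haematopoietic differentiation of H1, a human embryonic stem cell line long in use. The set was defined by name and comprised DNMT1, UHRF1, DNMT3A, DNMT3B, DNMT3L, TET1, TET2 and TET3. Of these 8 genes, 7 had a row among the 20255 genes of the expression table and DNMT3L was not analysed here. RNA was sequenced from 34 samples in 12 populations. Undifferentiated H1 cells (1 sample, no treatment) and embryoid bodies (EBs) at day 0 were unsorted, as were the cells at days 2 and 4. On days 6, 9 and 12 the cultures were sorted into CD43- and CD43+ cells, and on day 16 into CD43-CD45- and CD43+/CD45+ cells (below, the CD43- and CD43+ cells of day 16). Each of the 11 populations from day 0 onwards had 3 replicates, described in the methods as independent biological replicates. Differentiation was started with BMP4 and VEGF, and per the labels VEGF was the only growth factor in the medium from day 3, with no haematopoietic cytokine added to any population. All values came from 1 cell line and from bulk RNA, so that a change in the share of a cell type and a change in RNA per cell cannot be told apart. The samples were sequenced by a pair of companies, and since the sources used here do not say which samples went to which, company and population cannot be told apart.

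DNA methylation in mammals is mostly carried by cytosines in CpG dinucleotides. DNMT1 copies the pattern onto the new strand after replication, and UHRF1 brings DNMT1 to hemimethylated DNA by binding such sites and modifying histone H3. DNMT3A and DNMT3B methylate unmethylated DNA, and DNMT3L is a cofactor of both without catalytic activity. TET1, TET2 and TET3 oxidize 5-methylcytosine, which opens the way to its loss through replication or through base excision repair. In the haematopoietic system DNMT3A and TET2 are known as genes recurrently mutated in clonal haematopoiesis and myeloid leukaemia, whereas DNMT3B and TET1 are known for high expression in pluripotent cells.

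The deposited values are tag counts normalized for GC content and between samples. They are called normalized tag counts here. Every sample had the same total (17856940), the same median (197) and the same highest value (90700), so that a value reflects mainly the position of a gene among the others in that sample, and sequencing depth is unknown. Levels of different genes were not compared, because the values are not per length. Differences are log2 fold changes of the value + 1 with their standard error (SE) from 1 limma fit of the 33 replicated samples, and adjusted p-values were taken over all 19788 genes tested, all 7 genes of the set among them. A gene passed the test at an adjusted p below 0.05 and was called when its change was also above 4-fold. SPN, the gene of CD43, ranged from 2338 to 9460 in the CD43+ samples and from 18 to 328 in the CD43- samples. PTPRC, the gene of CD45, ranged from 10084 to 15868 in the day 16 CD43+ samples and from 18 to 42 in the day 16 CD43- samples. The summed level of 8 mesenchymal markers was 197751 to 324886 in the CD43- samples and 4181 to 155166 in the CD43+ samples. Blood markers were low but not absent in the late CD43- samples, with a summed level of 7 granulocyte markers of 118 to 7333 on day 12 and 6349 to 20607 on day 16, against 157108 to 218753 in the CD43+ samples of those days. The 3 day 12 CD43- samples stood apart from each other: their granulocyte sums were 118, 863 and 7333, and their summed levels of 17 proliferation genes were 20640, 7811 and 10838.

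The 7 genes lie on 6 chromosomes (GRCh38, the whole gene as given in the table). DNMT1 (ENSG00000130816) is at chr19:10133345-10231286 on the minus strand and UHRF1 (ENSG00000276043) at chr19:4903080-4962154 on the plus strand. DNMT3A (ENSG00000119772) is at chr2:25227855-25342590 on the minus strand and DNMT3B (ENSG00000088305) at chr20:32762385-32809356 on the plus strand. TET1 (ENSG00000138336) is at chr10:68560656-68694482, TET2 (ENSG00000168769) at chr4:105145875-105279816 and TET3 (ENSG00000187605) at chr2:73986404-74108176, all on the plus strand. The DNMT1 span overlaps S1PR2 on the same strand, and TET2 and TET3 overlap an antisense RNA (TET2-AS1) and an unclassified transcript (AC110801.1) on the opposite strand. The RSEM settings in the methods name no strand option, so reads of the opposite-strand neighbours may not have been separated from TET2 and TET3, and strand could not separate S1PR2 from DNMT1.

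The promoters of the maintenance pair are shown because DNMT1 and UHRF1 moved together in the data, and both hold a word bound by E2F factors, regulators of genes used in DNA replication. The windows run from 140 bases before to 10 bases after a transcription start listed by RefSeq (GRCh38.p14), 5′ to 3′ on the strand of the gene, with the E2F word in capitals. The DNMT1 window is chr19:10194944-10195093 on the minus strand and the UHRF1 window chr19:4909361-4909510 on the plus strand, and both starts lie inside the gene spans of the table, 36333 and 6421 bases from their 5′ ends.
DNMT1: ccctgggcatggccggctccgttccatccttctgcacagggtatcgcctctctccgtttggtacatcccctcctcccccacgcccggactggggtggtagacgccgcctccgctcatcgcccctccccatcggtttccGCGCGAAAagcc
UHRF1: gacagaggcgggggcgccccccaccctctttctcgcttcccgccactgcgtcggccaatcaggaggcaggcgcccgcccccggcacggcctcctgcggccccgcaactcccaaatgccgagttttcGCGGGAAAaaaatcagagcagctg
Each word is the reverse complement of a searched one, TTTCGCGC in DNMT1 and TTTCCCGC in UHRF1. The word began 2 bases before the start site in DNMT1 and 14 bases before it in UHRF1. The search used TTTCGCGC, TTTGGCGC, TTTCCCGC and TTTGCCGC on both strands of 300-base promoters (250 bases before the start). Such a word was found in the 1 listed promoter of DNMT1 and in 2 of the 3 of UHRF1, in no listed promoter of the other 5 genes, and in 3.31% of all 35116 promoters. The GATA word AGATAA (10.3% of all promoters), the PU.1 word GAGGAAGT (2.59%) and the octamer ATGCAAAT (1.77%) were in no listed promoter of the 7 genes. The 1 listed promoter of DNMT3B has its start 17467 bases inside the gene span, so the 5′ end of DNMT3B was not searched for any of these words. A match is a description of the sequence and no evidence of binding.

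**Figure D1:**
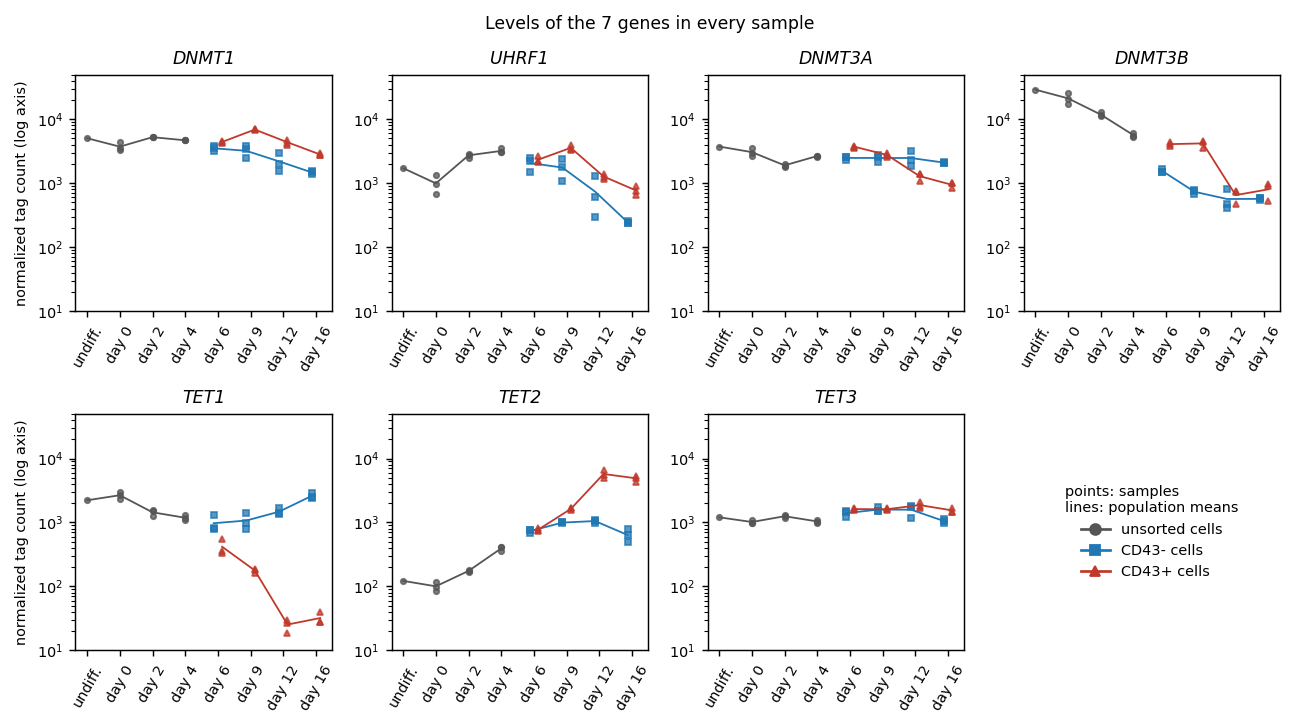
Normalized tag counts (log axis) of the 7 genes in each of the 34 samples by stage, with points for samples and lines through the population means (unsorted grey, CD43- blue, CD43+ red). TET1 fell in CD43+ cells from 417.0 on day 6 to 25.3 on day 12 while TET2 rose from 771.3 to 5730.7, and TET3 varied least.

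DNMT1, the maintenance methyltransferase, was highest in the day 9 CD43+ cells and lowest in the day 16 CD43- cells, with a 4.67-fold difference between the means. Its values were 6922, 6826 and 6922 in the 3 day 9 CD43+ samples and 3402, 2453 and 3758 in the day 9 CD43- samples. On day 12 they were 3990, 4295 and 4790 in CD43+ and 3000, 1560 and 2020 in CD43- cells, and on day 16 they were 2747, 2760 and 2920 against 1372, 1510 and 1548. Every CD43+ sample was above every CD43- sample of the same day on these 3 days. DNMT1 was higher in CD43+ cells by 1.13 (SE 0.15, adjusted p = 4.05e-07) on day 9, 1.04 (SE 0.15, adjusted p = 1.18e-06) on day 12 and 0.93 (SE 0.15, adjusted p = 6.62e-06) on day 16, which is 2.18-, 2.05- and 1.9-fold. On day 6 the CD43+ samples (4511, 4434 and 4295) were also above the CD43- samples (3210, 3758 and 3576), but the difference of 0.33 (SE 0.15) did not pass the test (adjusted p = 0.0751).

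UHRF1, which recruits DNMT1 to hemimethylated DNA, followed the same course over a wider range, with 14.6-fold between the day 9 CD43+ and the day 16 CD43- means. Its values were 672, 962 and 1344 in the day 0 EBs and 2510, 2884 and 2778 on day 2, with no overlap. UHRF1 rose by 1.51 (SE 0.32, adjusted p = 0.000518) from day 0 to day 2, a 2.85-fold increase, while DNMT1 rose 1.42-fold (0.50, SE 0.15, adjusted p = 0.0113). The DNMT1 rise did not pass without day 0 replicate 1 (0.41, adjusted p = 0.0739). Between the sorted populations, UHRF1 was 3918, 3436 and 3358 in CD43+ and 1821, 1071 and 2372 in CD43- cells on day 9, and 656, 746 and 896 against 238, 234 and 260 on day 16. The populations were separate on both days. UHRF1 was higher in CD43+ cells by 1.10 (SE 0.32, adjusted p = 0.00405) on day 9 and by 1.64 (SE 0.32, adjusted p = 6.69e-05) on day 16. On day 12 the CD43+ values (1381, 1168 and 1270) overlapped the CD43- values (1311, 300 and 606). The day 12 difference of 1.03 (SE 0.32, adjusted p = 0.00608) became 0.51 (adjusted p = 0.118) without CD43- replicate 2, and it did not pass in a fit of these 2 populations only (adjusted p = 0.137). On day 6 the difference was 0.20 (SE 0.32, adjusted p = 0.644).

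Both maintenance genes fell late in both sorted lineages. In CD43+ cells from day 9 to day 12, DNMT1 fell by 0.66 (SE 0.15, adjusted p = 0.000634) and UHRF1 fell by 1.49 (SE 0.32, adjusted p = 0.000312). In CD43- cells over the same days the falls were -0.58 (SE 0.15, adjusted p = 0.00447) and -1.42 (SE 0.32, adjusted p = 0.00111), with overlapping samples for both genes. From day 12 to day 16 CD43- cells changed by -0.52 (SE 0.15, adjusted p = 0.00734) for DNMT1 and -1.34 (SE 0.32, adjusted p = 0.00132) for UHRF1. The CD43- changes rest on the uneven day 12 CD43- samples. DNMT1 did not pass from day 9 to day 12 without day 12 CD43- replicate 2 (-0.36, adjusted p = 0.0624), nor from day 12 to day 16 without replicate 1 (-0.27, adjusted p = 0.112), and none of the 4 changes passed in fits of only the compared populations. Before the blood cells were sorted out, DNMT1 was 4662, 4722 and 4662 on day 4, above all CD43- samples of day 6. This fall of 0.42 (SE 0.15, adjusted p = 0.0288) did not pass with median-of-ratios scaling (adjusted p = 0.103), without any 1 of the day 4 samples or without CD43- replicate 1 (adjusted p = 0.0586 to 0.11), or with a replicate block on day 6 (adjusted p = 0.0619). In CD43+ cells DNMT1 rose from day 6 to day 9 by 0.64 (SE 0.15, adjusted p = 0.00201) and fell from day 12 to day 16 by 0.63 (SE 0.15, adjusted p = 0.00174). UHRF1 changed by 0.62 (SE 0.32, adjusted p = 0.157) and -0.74 (SE 0.32, adjusted p = 0.0652) over these steps.

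Proliferation genes moved beside the maintenance pair. Of 17 proliferation genes (among them the replication licensing genes MCM2 to MCM7, MKI67 and TOP2A), 17 were higher in CD43+ than CD43- cells on day 9, day 12 and day 16, with median differences of 1.63, 2.06 and 2.10. Among all genes tested 38.5%, 38.9% and 37.3% were higher, with medians of 0.24, 0.22 and 0.14. The largest rises on day 9 were BUB1 (2.48, SE 0.42), a spindle checkpoint kinase, CCNA2 (2.28, SE 0.33), a cyclin of S phase and G2, and MCM5 (2.14, SE 0.25). On day 6, 9 of the 17 were higher and 0 lower, where 50.3% of all genes passed. In CD43- cells from day 9 to day 12 all 17 were lower (median -1.20), and in CD43+ cells 14 were (median -0.96). Among all genes 36.7% and 56.3% passed in these steps. Across the 12 population means the median of the list had a Pearson r of 0.93 with DNMT1, 0.80 with UHRF1 and 0.79 with DNMT3B, and of 0.21 with DNMT3A, -0.13 with TET1, -0.33 with TET2 and -0.07 with TET3. DNMT1 and UHRF1 had an r of 0.91 with each other. In the 3 day 12 CD43- samples the order was the same for the proliferation sum, DNMT1 and UHRF1, highest in replicate 1 and lowest in replicate 2. The part of proliferation in the differences of DNMT1, UHRF1 and DNMT3B was not tested.

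Genes linked to maintenance methylation behaved in part like DNMT1. The list is not limited to partners of DNMT1 at the replication fork, and its members need not act in the same direction. Between day 9 CD43+ and CD43- cells 65.7% of all genes passed (median 0.24). Of the 9 listed genes, 7 were higher in the CD43+ cells and 0 lower (median 0.88). They were led by CDCA7 (2.27, SE 0.26, adjusted p = 2.23e-08), the activator of the HELLS remodeller, PCNA (1.96, SE 0.22, adjusted p = 1.76e-08), the sliding clamp, and LIG1 (1.33, SE 0.18, adjusted p = 3.93e-07), the replicative ligase. On day 12, where 68.0% of all genes passed, 6 were higher and 1 lower. The lower one was EHMT2, a histone H3 lysine 9 methyltransferase (-0.78, SE 0.09, adjusted p = 3.71e-08). Between day 0 and the day 16 CD43+ cells, where 71.3% of all genes passed, 8 of 9 fell, DPPA3 (-6.38, SE 0.54) and HELLS (-3.91, SE 0.41) by the most, and UHRF2, the paralogue of UHRF1, rose (0.50, SE 0.14, adjusted p = 0.00312). DNMT1 itself was 0.40 lower (SE 0.15, adjusted p = 0.0238) in day 16 CD43+ cells than in day 0 EBs, which did not pass without day 0 replicate 3 (adjusted p = 0.151) or with median-of-ratios scaling (adjusted p = 0.0995). UHRF1 differed by -0.33 (SE 0.32, adjusted p = 0.37). In the day 16 CD43- cells, DNMT1 was lower than on day 0 by 1.32 (SE 0.15, adjusted p = 1.7e-08) and UHRF1 by 1.96 (SE 0.32, adjusted p = 4.96e-06).

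DNMT3B, the de novo methyltransferase of early embryonic cells, fell from the start of differentiation and was retained longer in the CD43+ cells. It was 29030 in the undifferentiated sample, 17373, 20431 and 25876 on day 0, 12854, 11204 and 11512 on day 2, and 5562, 6072 and 5318 on day 4. Each stage lay wholly below the one before. The steps were -0.82 (SE 0.21, adjusted p = 0.00276) to day 2 and -1.07 (SE 0.21, adjusted p = 0.000193) to day 4. On day 6 DNMT3B was 4082, 3822 and 4332 in CD43+ and 1678, 1513 and 1520 in CD43- cells, and on day 9 it was 4511, 3576 and 4481 against 774, 676 and 751. The populations were far apart on both days. The difference was 1.38 (SE 0.21, adjusted p = 4.49e-06) on day 6 and 2.51 (SE 0.21, adjusted p = 6.41e-11), 5.68-fold, on day 9. Against day 4, day 6 CD43- cells had changed by -1.85 (SE 0.21, adjusted p = 1.03e-07) and CD43+ cells by -0.47 (SE 0.21, adjusted p = 0.0617). The CD43+ change passed with median-of-ratios scaling (adjusted p = 0.0323) and in a fit of only the populations compared (adjusted p = 0.00317). These 2 comparisons share the day 4 samples.

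The retention of DNMT3B in CD43+ cells ended between days 9 and 12. The day 12 CD43+ values were 473, 748 and 728, below all 3 day 9 samples. DNMT3B fell by 2.71 (SE 0.21, adjusted p = 4.44e-11), a 6.54-fold fall, while CD43- cells fell earlier, by 1.10 (SE 0.21, adjusted p = 0.0013) from day 6 to day 9. On day 12 the CD43- values were 816, 464 and 416, and the 2 populations overlapped (difference 0.24, SE 0.21, adjusted p = 0.323). On day 16 the CD43+ values were 913, 970 and 520 and the CD43- values 540, 578 and 586, and they overlapped through the third CD43+ sample. The day 16 difference of 0.44 (SE 0.21, adjusted p = 0.0631) passed without that sample (0.73, adjusted p = 0.00284), and the day 12 difference passed without CD43- replicate 1 (0.53, adjusted p = 0.0201). By day 16 DNMT3B was 27.1-fold below day 0 in CD43+ cells (-4.76, SE 0.21, adjusted p = 4.67e-17) and 36.8-fold below it in CD43- cells (-5.20, SE 0.21, adjusted p = 1.49e-17). From day 9 to day 12 the sums of 8 erythroid markers in CD43+ cells went from 172308-300881 to 8948-24503. The part of cell types in the DNMT3B fall over these days was not tested.

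Pluripotency genes and DNMT3B both fell before the sort, and they differed more in the step from day 4 to day 6 CD43+ cells. From day 0 to day 2 DNMT3B fell by 0.82 and SOX2 was called lower (-3.41, SE 0.73). POU5F1 (-0.06, SE 0.55), L1TD1 (-0.37, SE 0.72) and NANOG (-1.39, SE 0.69) did not pass in that step. From day 2 to day 4 POU5F1 (-3.44, SE 0.55), L1TD1 (-3.31, SE 0.72) and SOX2 (-3.85, SE 0.73) were called lower and NANOG did not pass, while DNMT3B fell by 1.07. Of 10 pluripotency genes, 9 were lower in day 6 CD43+ cells than on day 4 and 0 higher (median -4.28, against 0.03 over all genes). Among all genes 51.9% passed in this comparison. In this step DNMT3B changed by -0.47 and did not pass in the main fit. The summed level of POU5F1, NANOG, SOX2 and L1TD1 was 3358 to 4362 on day 4, 84 to 114 in day 6 CD43+ and 998 to 2036 in day 6 CD43- cells. On day 6 DNMT3B was thus higher in the population with the lower sum of undifferentiated cell markers. By day 16 all 10 genes were called lower than on day 0 in both populations (medians -9.50 and -7.79). Among all genes 30.0% and 25.0% were called in these 2 comparisons, which share the day 0 samples. Across the 12 population means DNMT3B and POU5F1 had a Pearson r of 0.83.

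DNMT3A, the other de novo methyltransferase, took a different course, with a 3.96-fold range and its largest sorted-cell levels in the early CD43+ cells. It was 2639, 3002 and 3527 on day 0, 1888, 1821 and 1983 on day 2, and 2693, 2706 and 2578 on day 4. The day 2 samples were the lowest of the unsorted ones. DNMT3A fell by 0.68 (SE 0.14, adjusted p = 0.000277) and then rose by 0.49 (SE 0.14, adjusted p = 0.00598). On day 6 it was 3877, 3554 and 3738 in CD43+ and 2566, 2554 and 2328 in CD43- cells. The CD43+ samples were all higher, by 0.58 (SE 0.14, adjusted p = 0.000809), and they were above day 4 by 0.48 (SE 0.14, adjusted p = 0.00411).

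The sign of the DNMT3A difference had turned by day 12. The values were 1082, 1410 and 1370 in CD43+ and 3214, 2315 and 1887 in CD43- cells on day 12, and 998, 991 and 830 against 2084, 2076 and 2136 on day 16. All CD43+ samples were the lower ones. The differences were -0.92 (SE 0.14, adjusted p = 1.3e-06) and -1.16 (SE 0.14, adjusted p = 2.51e-08), and on day 9, with overlapping samples, 0.16 (SE 0.14, adjusted p = 0.3). Within CD43+ cells DNMT3A changed by -0.43 (SE 0.14, adjusted p = 0.0172) from day 6 to day 9, by -1.11 (SE 0.14, adjusted p = 1.35e-07) to day 12 and by -0.45 (SE 0.14, adjusted p = 0.00962) to day 16. The first change did not pass without day 6 CD43+ replicate 1 or day 9 CD43+ replicate 2 (adjusted p = 0.0582 and 0.0853), and the last without day 12 CD43+ replicate 2 or day 16 CD43+ replicate 3 (adjusted p = 0.0513 and 0.0575) or in a fit of these 2 populations only (adjusted p = 0.0576). The CD43- cells showed changes of -0.01, -0.03 and -0.20 (SE 0.14 each, adjusted p = 1.0, 0.885 and 0.236) over the same steps. Against day 0, day 16 CD43+ cells were lower by 1.70 (SE 0.14, adjusted p = 1.1e-11) and day 16 CD43- cells by 0.53 (SE 0.14, adjusted p = 0.00116), in comparisons that share the day 0 samples.

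The balance of the de novo enzymes is given as the log2 ratio of DNMT3B to DNMT3A within each sample. Only its change between populations is informative, because the values are not per length. The ratio fell from 2.79 ± 0.08 (SD, n = 3) on day 0 to 1.09 ± 0.07 on day 4. In CD43- cells it was -0.66 ± 0.08 on day 6 and -1.75 ± 0.07 on day 9, and in CD43+ cells 0.13 ± 0.07 and 0.59 ± 0.09. On day 12 it was -2.16 ± 0.17 in CD43- and -1.01 ± 0.16 in CD43+ cells, and on day 16 it was -1.89 ± 0.05 and -0.28 ± 0.35. The ratio was higher in every CD43+ sample than in every CD43- sample of the same day on all 4 days. On days 6 and 9 this came with more DNMT3B in the CD43+ cells, and on days 12 and 16 with less DNMT3A.

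TET1, the dioxygenase of pluripotent cells, was lost from the CD43+ lineage and kept in the CD43- lineage. It was 2224 in the undifferentiated sample, 2951, 2715 and 2334 on day 0, and 1497, 1278 and 1550 on day 2, a change of -0.89 (SE 0.21, adjusted p = 0.00163). On day 6 the CD43+ values were 360, 334 and 557 and the CD43- values 808, 793 and 1319. On day 9 they were 182, 187 and 164 against 993, 1423 and 799. The populations were separate on both days, by -1.22 (SE 0.21, adjusted p = 2.88e-05) and -2.55 (SE 0.21, adjusted p = 6.04e-11). The mesenchymal sums of the CD43+ samples were 58902, 73709 and 155166 on day 6 and 4181, 8449 and 21877 on day 9. In the day 6 CD43- samples these sums were 197751 to 243921.

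The gap widened on the later days. TET1 was 19, 30 and 27 in CD43+ and 1358, 1674 and 1384 in CD43- cells on day 12, and 28, 40 and 28 against 2448, 2876 and 2484 on day 16. The CD43+ values were near the filter on low values (10), whereas the day 16 CD43- values were within the range of the day 0 EBs. The differences were -5.82 (SE 0.21, adjusted p = 2.67e-18), 56.6-fold, on day 12 and -6.32 (SE 0.21, adjusted p = 3.94e-19), 79.8-fold, on day 16. The steps in CD43+ cells were -1.54 (SE 0.21, adjusted p = 1.03e-06) from day 4 to day 6, -1.19 (SE 0.21, adjusted p = 8.39e-05) to day 9, -2.78 (SE 0.21, adjusted p = 3.43e-11) to day 12 and 0.33 (SE 0.21, adjusted p = 0.219) to day 16. In CD43- cells TET1 rose from day 12 to day 16 by 0.82 (SE 0.21, adjusted p = 0.00247), so that it differed from day 0 by -0.03 (SE 0.21, adjusted p = 0.907). The undifferentiated markers did not return with it: their sum was 255 to 511 in day 16 CD43- samples and 43737 to 51047 on day 0. The summed mesenchymal markers were 320510 to 324886 in day 16 CD43- samples and 7479 to 16013 in day 16 CD43+ samples. In day 12 CD43- samples they were 307776 to 309196. The CD43- cells also held other markers. From day 12 to day 16 the sums of 7 endothelial markers went from 31635-48584 to 55185-67802. Those of 6 epithelial and endoderm markers went from 13203-24254 to 23162-31553. In day 16 CD43+ samples these 2 sums were 7607-9954 and 581-1267. The part of mesenchymal, endothelial or epithelial and endoderm cells in the TET1 difference was not tested.

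TET2, the dioxygenase known from myeloid cells, rose at every step from day 0 to day 6, and in CD43+ cells on to day 12. It was 122 in the undifferentiated sample, 117, 99 and 85 on day 0, 175, 178 and 171 on day 2, and 364, 408 and 408 on day 4. These 3 stages did not overlap each other. The steps were 0.81 (SE 0.13, adjusted p = 1.54e-05) and 1.16 (SE 0.13, adjusted p = 4.48e-08). On day 6 it was 754, 744 and 816 in CD43+ and 750, 762 and 678 in CD43- cells, 0.97 and 0.89 above day 4 (SE 0.13, adjusted p = 5.57e-07 and 3.57e-06). The day 6 populations overlapped, with a difference of 0.08 (SE 0.13, adjusted p = 0.635).

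From day 9 onwards the TET2 levels of the lineages parted. CD43+ values were 1656, 1694 and 1542 on day 9, 5560, 6589 and 5043 on day 12, and 5412, 4330 and 4963 on day 16. CD43- values were 1006, 972 and 1008, then 1068, 1102 and 988, then 486, 780 and 643. All CD43+ samples were above all CD43- samples on these days. The differences were 0.71 (SE 0.13, adjusted p = 2.46e-05), 2.44 (SE 0.13, adjusted p = 3.63e-15) and 2.96 (SE 0.13, adjusted p = 7.1e-17), the last 7.8-fold. In CD43+ cells TET2 rose by 1.08 (SE 0.13, adjusted p = 2.7e-07) from day 6 to day 9 and by 1.80 (SE 0.13, adjusted p = 9.09e-12) to day 12, and then differed by -0.22 (SE 0.13, adjusted p = 0.168). In CD43- cells it changed by 0.45 (SE 0.13, adjusted p = 0.0332) from day 6 to day 9, a change that did not pass without any 1 of the 6 samples (adjusted p = 0.0581 to 0.0955), with a replicate block on day 6 (adjusted p = 0.128) or in a fit of these 2 populations only (adjusted p = 0.102). It was lower on day 16 than on day 12 by 0.75 (SE 0.13, adjusted p = 3.43e-05).

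Myeloid markers moved beside TET2 in the CD43+ cells. The 7 granulocyte markers summed to 107 to 153 on day 6, 22604 to 30583 on day 9 and 190927 to 218753 on day 12, and the 7 macrophage markers to 801 to 1210, 2649 to 3105 and 18929 to 79188. All 7 of each list were higher in CD43+ than CD43- cells on days 12 and 16, where 68.0% and 67.4% of all genes passed. Erythroid markers went the other way from day 9 to day 12, with 8 of 8 lower (median -3.90), where 56.3% of all genes passed. From day 4 to day 6, when TET2 also rose, the granulocyte sums were 24-53 on day 4, 107-153 in day 6 CD43+ and 27-69 in day 6 CD43- cells. The macrophage sums of the same populations were 123-156, 801-1210 and 568-3467. CSF1R, the receptor for macrophage colony-stimulating factor, was called higher in the CD43+ cells of day 6 than on day 4 (4.91, SE 0.75, adjusted p = 4.37e-06). Of the other macrophage markers, MRC1 was also called (2.33, SE 0.71, adjusted p = 0.00755), and CD14, C1QA, MS4A7, CD163 and C1QB did not pass. In day 6 CD43- cells CSF1R did not pass against day 4 (-0.06, SE 0.75, adjusted p = 0.972), and the MRC1 mean was 2005.7. From day 6 to day 9 in CD43+ cells C1QB (5.06, SE 0.77), C1QA (4.51, SE 0.85), MS4A7 (3.13, SE 0.77) and CSF1R (2.75, SE 0.75) were called higher. CD14 (a mean of 8.67 on both days), CD163 and MRC1 (means of 522.0 and 162.3, adjusted p = 0.0584) did not pass in this step. In the 3 day 12 CD43- samples TET2 was 1068, 1102 and 988 at granulocyte sums of 118, 863 and 7333 and macrophage sums of 284, 4592 and 5788. In the 3 day 16 CD43- samples TET2 was 486, 780 and 643 at granulocyte sums of 6349, 20607 and 12758 and macrophage sums of 625, 985 and 904. The part of myeloid cells in the TET2 rises was not tested.

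The log2 ratio of TET2 to TET1 summarizes the exchange of one enzyme for the other. It rose from -4.74 ± 0.07 (SD, n = 3) on day 0 to -3.04 ± 0.18 on day 2 and -1.59 ± 0.22 on day 4. In the CD43+ cells of days 6, 9, 12 and 16 it was 0.92 ± 0.33, 3.20 ± 0.03, 7.84 ± 0.33 and 7.27 ± 0.45. In CD43- cells it was -0.38 ± 0.51, -0.07 ± 0.45, -0.48 ± 0.13 and -2.05 ± 0.24 on these days. Across the 12 population means TET1 and TET2 had a Pearson r of -0.86.

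TET3, the third dioxygenase, varied least of the 7 genes, with 1.84-fold between its highest and lowest means. It was 978, 990 and 1081 on day 0 and 2118, 1672 and 1817 in the day 12 CD43+ cells. These were the extremes of the replicated populations, and the 6 highest population means each overlapped the next. TET3 was higher on day 6 than on day 4 in CD43+ cells (0.64, SE 0.12, adjusted p = 8.53e-05) and in CD43- cells (0.42, SE 0.12, adjusted p = 0.00624). On day 16 it was 1472, 1447 and 1712 in CD43+ and 969, 1146 and 1046 in CD43- cells. The CD43+ samples were all higher, by 0.55 (SE 0.12, adjusted p = 0.000289), and the CD43- cells had fallen by 0.57 (SE 0.12, adjusted p = 0.000496) from day 12, which did not pass in a fit of only these 2 populations (adjusted p = 0.0657). The CD43 differences on days 6, 9 and 12 were 0.22, 0.02 and 0.26 (SE 0.12 each, adjusted p = 0.141, 0.899 and 0.0654). Without 1 replicate the day 12 difference ranged from 0.06 to 0.38, and it passed without CD43- replicate 1 (adjusted p = 0.0341) or 3 (adjusted p = 0.0119) or CD43+ replicate 2 (adjusted p = 0.0333). TET3 was 0.60 above day 0 in day 16 CD43+ cells (SE 0.12, adjusted p = 8.77e-05) and differed by 0.05 (SE 0.12, adjusted p = 0.733) in day 16 CD43- cells.

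**Figure D2:**
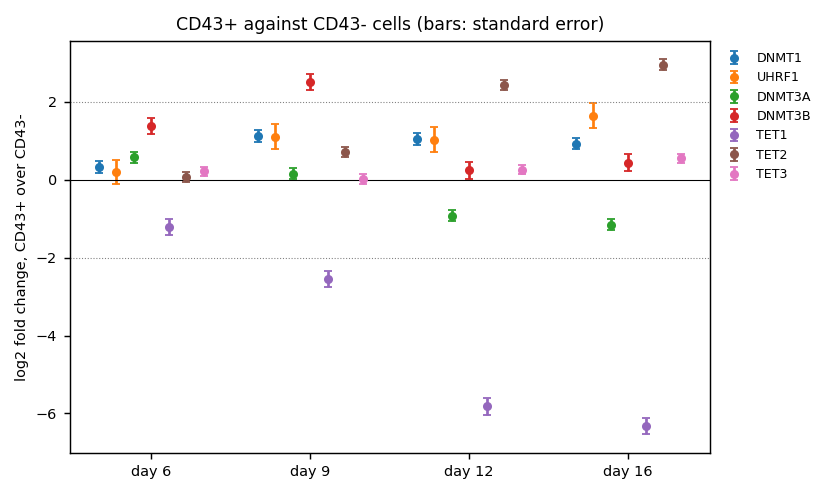
Log2 fold change of CD43+ over CD43- cells with its standard error for the 7 genes on days 6, 9, 12 and 16, with dotted lines at 4-fold. TET1 fell from -1.22 to -6.32, TET2 rose from 0.08 to 2.96, and DNMT3B was at 2.51 on day 9 and 0.24 on day 12.

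The set was compared with all genes in each contrast, where a share of members near that of all genes is no result about the set. Between CD43+ and CD43- cells on day 6, 3 of 7 genes passed (50.3% of all genes) and 0 were called (12.5%). On day 9, 5 passed (65.7%) and TET1 and DNMT3B were called (21.5%). On day 12, 5 passed (68.0%), and on day 16, 6 passed (67.4%), with TET1 and TET2 called on both days (26.2% and 25.8%). With 7 genes, nothing particular to the set is read from these counts. The median-of-ratios scaling moved the all-gene median by -0.207 on day 9 and -0.139 on day 6, from 0.244 and 0.139, and by 0.149 in CD43+ cells from day 9 to day 12.

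Early in differentiation, 6 of 7 passed from day 0 to day 2 (36.4% of all genes) and 3 from day 2 to day 4 (36.1%), with 0 called in either (7.88% and 9.5%). From day 4 to day 6, 4 passed in CD43+ cells (51.9%) and 4 in CD43- cells (45%), with 0 called (14.5% and 7.71%). In the first step the 3 genes that rose were DNMT1, UHRF1 and TET2, and the 3 that fell were DNMT3A, DNMT3B and TET1. Within CD43+ cells, 4 passed from day 6 to day 9 (29.8%) and 0 were called (7.53%), 6 passed from day 9 to day 12 (56.3%) with TET1 and DNMT3B called (15.0%), and 2 passed from day 12 to day 16 (42.4%) with 0 called (9.05%). The step from day 9 to day 12 was the broadest of the CD43+ steps for the set and also for all genes. Of the members that passed in it, TET2 alone rose. TET3 did not pass (0.21, SE 0.12, adjusted p = 0.148), but it passed as higher with median-of-ratios scaling (0.38, adjusted p = 0.0154). Within CD43- cells, 2 passed in the step to day 9 (6.65%), 2 in the step to day 12 (36.7%) and 5 in the step to day 16 (45.6%), with 0 called in any (1.75%, 7.33% and 10.4%). Over the whole course, 6 passed between day 0 and day 16 CD43+ cells (71.3%) with TET1, DNMT3B and TET2 called (30.0%), and 5 between day 0 and day 16 CD43- cells (68.5%) with DNMT3B and TET2 called (25.0%).

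Whether the CD43 difference itself changed between days was also tested. From day 6 to day 9 it changed for 4 of 7 genes (18.2% of all genes), 0 of them by more than 4-fold (7.39%). The difference of DNMT1 grew by 0.80 (SE 0.22, adjusted p = 0.0107), that of DNMT3B by 1.13 (SE 0.30, adjusted p = 0.00786) and that of TET2 by 0.63 (SE 0.18, adjusted p = 0.0151), while that of TET1 moved by -1.33 (SE 0.30, adjusted p = 0.00238). From day 9 to day 12 it changed for 4 (27.4%), with TET1 and DNMT3B called (9.0%), and without day 12 CD43- replicate 1 only 1 was called. TET1 moved by -3.28 (SE 0.30, adjusted p = 8.48e-09), DNMT3B by -2.27 (SE 0.30, adjusted p = 1.92e-06), DNMT3A by -1.08 (SE 0.19, adjusted p = 0.000124) and TET2 by 1.73 (SE 0.18, adjusted p = 8.15e-08). From day 12 to day 16 only TET2 passed (17%), with 0 called (5.03%), by 0.53 (SE 0.18, adjusted p = 0.0451), which did not pass without any 1 of 8 of the 12 samples (adjusted p = 0.0612 to 0.171), with a replicate block on day 6 (adjusted p = 0.0536) or in a fit of the 4 populations alone (adjusted p = 0.198).

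The populations of each gene were ordered by mean, and neighbours were compared for overlap of their samples. The undifferentiated population was 1 sample, so a step that involves it sets 1 value without a spread against a range. For DNMT1 the day 9 CD43+ cells stood above, and the day 16 CD43- cells below, all others. For DNMT3B the unsorted populations formed 4 separate steps at the top, followed by the overlapping day 9 and day 6 CD43+ cells and then, separately, the day 6 CD43- cells, and the 5 lowest populations overlapped from neighbour to neighbour. For TET1 the day 6, day 9 and the overlapping day 12 and 16 CD43+ cells were the bottom of the order. For TET2 the overlapping day 12 and 16 CD43+ cells were the top, the day 9 CD43+ cells came next, and the unsorted populations were the 4 lowest, separate from each other. For UHRF1 only the day 16 CD43- cells stood apart from all others, and for DNMT3A the day 12 and day 16 CD43+ cells formed 2 separate steps at the bottom.

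The genes most like each member across the 12 population means are given as descriptions, with Pearson r over means that share libraries and scaling. Nearest to DNMT1 were H2AFZ (r = 0.984), SMC2 (0.978), DTYMK (0.976), POLE (0.974) and RANGRF (0.973). Nearest to UHRF1 were PCYT2 (0.965), CENPO (0.959), SLC27A4 (0.958), SKA2 (0.955) and PXMP2 (0.945). For DNMT3B they were GPR63 (0.989), AGPAT5 (0.982), CDK7 (0.979), PLCB3 (0.977) and USP44 (0.976), and for DNMT3A they were DYNC1H1 (0.936), SFRP1 (0.926), ALDH9A1 (0.926), PLEKHA7 (0.921) and DDB1 (0.921). DNMT1 was the member whose neighbours included a histone variant (H2AFZ), a condensin subunit (SMC2), a thymidylate kinase (DTYMK) and a replicative DNA polymerase (POLE). TET1 was nearest to DTX3 (0.99), PTPRF (0.985), PLS3 (0.985), ETNK2 (0.985) and GLIS2 (0.985). TET2 was nearest to CTSZ (0.981), a lysosomal cathepsin, TNFRSF1B (0.98), a receptor of TNF, LYST (0.979), TSC22D3 (0.976) and TMEM106A (0.975). TET3 was nearest to CYP4V2 (0.939), PCF11 (0.937), NFKB1 (0.933), SPEN (0.929) and NR4A2 (0.929). Over the 33 single samples 4 of these 5 genes were again among the nearest 5 for DNMT1, TET2 and UHRF1, 3 for DNMT3A and TET1, 2 for TET3 and 1 for DNMT3B.

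Genes downstream of TET oxidation were less uniform. Of 14 genes of active demethylation and base excision repair, 9 were higher and 2 lower in day 9 CD43+ cells (median 0.50, against 0.24 over all genes), and 5 were higher and 3 lower on day 12 (median 0.06). On these days 65.7% and 68.0% of all genes passed. UNG, the uracil glycosylase, was higher by the most on day 9 (1.43). MBD4, a glycosylase for T and U opposite G at CpG sites, was higher by 1.30 (SE 0.15, adjusted p = 1.64e-08) on day 9 and 1.31 (SE 0.15, adjusted p = 1.16e-08) on day 12. GADD45B, a stress-induced gene also linked to demethylation, was lower by 2.31 (SE 0.21, adjusted p = 2.34e-10) and 1.25 (SE 0.21, adjusted p = 6.32e-06). In CD43+ cells from day 9 to day 12, where 56.3% of all genes passed, 4 of the 14 rose and 8 fell, with GADD45B (2.06, SE 0.21) among the risers and GADD45A (-1.73, SE 0.24) and UNG (-1.51, SE 0.15) among those that fell.

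Of 12 genes of cofactor metabolism and TET partners, 8 were higher and 2 lower in day 9 CD43+ cells (median 0.67). Among all genes 65.7% passed in this comparison (median 0.24). MAT2A, which makes the methyl donor S-adenosylmethionine, was higher by 1.11 (SE 0.12, adjusted p = 7.11e-09), and IDH2, a mitochondrial source of the TET cosubstrate 2-oxoglutarate, by 0.98 (SE 0.11, adjusted p = 3.12e-08). CXXC4, a CXXC protein related to the TET family and reported to bind TET2, was called lower in CD43+ cells on day 9 (-2.06, SE 0.28, adjusted p = 3.63e-07) and day 12 (-4.08, SE 0.28, adjusted p = 7.89e-13), with means of 11 against 206.7 on day 12. Between day 0 and day 16 CD43+ cells 5 of the 12 rose and 5 fell, where 71.3% of all genes passed.

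Of 7 methyl-CpG binding proteins, 5 rose and 1 fell between day 0 and day 16 in both CD43+ and CD43- cells (medians 0.73 and 1.08), where 71.3% and 68.5% of all genes passed, and MBD2 was called in the CD43+ cells (2.20, SE 0.19, adjusted p = 4.6e-11). Of 10 germline genes known to be silenced by promoter methylation, 6 were in the table and 5 were tested, while DDX4, MAEL, HORMAD1 and TEX101 were not analysed here. In CD43+ cells from day 9 to day 12, 2 of the 5 rose and 1 fell, beside 56.3% of all genes that passed. SYCP1, a gene of the meiotic synaptonemal complex, went from a mean of 0.667 to 22.0 and TEX15, a germ cell gene, from 81.3 to 4.0. Methylation itself was not measured.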

How the data were processed

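RNA sequencing of 34 H1 samples was analysed. The authors aligned reads with bowtie2 through RSEM against Ensembl v81 and made GC-normalized tag counts with EDASeq. The submitters' processing notes name bcl2fastq, STAR 2.7, Bowtie2, RSEM and hg38. The deposited values, in a table named after CPM, are whole numbers with 1 total in all samples, so their unit is taken as a normalized score, neither a count nor CPM, and no counting error can be given. The deposited GC percent per gene was used only for description. Every sample column was mapped to a sample by its label, and 0 columns were left unused. Of the identifiers, 20148 were also in GENCODE v29, which was used for overlapping genes.

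A pseudocount of 1 was added and the log2 values were fitted by limma 3.58.1 (R 4.3.3, lmFit and trended eBayes), using the 33 replicated samples together. A gene entered the fit when 3 or more samples had a value of 10 or higher, which 19788 did. Benjamini-Hochberg adjustment covered all of them in each of 19 contrasts. The procedure was tested on simulated data. Summaries used Python 3.11.15, numpy 2.4.6 and pandas 2.3.3, and figures matplotlib 3.10.9. Alternatives were pseudocounts of 0.1 and 10, no filter, a value of at least 100, median-of-ratios scaling, quantile normalization, robust variances, protein-coding genes only, fits of only the populations compared, replicate blocks, a fold change above 2 and leaving out each replicate.

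Same-numbered samples were checked for pairing by the correlation across genes of their deviations from the population means, which exceeded 0.1 in every pair only for CD43+ against CD43- cells on day 6 (0.198, 0.109 and 0.199). The members were named in every comparison they passed, other genes were named as sort markers, as at most the 3 largest rises and falls of a list, or as the 5 genes most like a member. Not every gene this rule names is reported here. The members and the lists were chosen with earlier results of these data known. Promoter sequences are from RefSeq (GRCh38.p14). The replicates measure only the spread between these samples.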

Additional observations from a re-analysis of the deposited data

Results flagged for a closer look

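The change of the CD43 difference (CD43+ minus CD43-, log2) between days was itself tested, and 9 changes passed. From day 6 to day 9 it changed by 0.80 for DNMT1, 1.13 for DNMT3B, 0.63 for TET2 and -1.33 for TET1. From day 9 to day 12 it changed by -3.28 for TET1, -2.27 for DNMT3B, -1.08 for DNMT3A and 1.73 for TET2, and from day 12 to day 16 by 0.53 for TET2. The populations had 3 samples each, too few for a check of single samples that lie far from the rest.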

How the results depend on the processing

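Over 97 results (a member in a comparison) and 11 processing alternatives, 1067 values were recomputed: 1039 kept direction and side of the threshold, 14 no longer passed, 14 newly passed and 0 reversed. Leaving out each replicate gave 648 values, of which 604 kept both, 29 no longer passed, 14 newly passed and 1 reversed. The cause of these changes was not tested. Quantile normalization could change little, because all samples already shared 1 distribution of values, so its 97 unchanged results say little about stability. Fits of only the populations compared, which use fewer samples, made up 9 of those lost and 8 of those gained, and the UHRF1 difference on day 12 was then 1.03 (adjusted p = 0.137) and its falls in CD43- cells -1.42 (adjusted p = 0.171) to day 12 and -1.34 (adjusted p = 0.102) to day 16.

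With a fold change above 2 in place of 4, the called members numbered 1 between days 0 and 2, 2 between days 2 and 4, and 1 between days 4 and 6 in CD43+ and in CD43- cells. Between CD43+ and CD43- cells they numbered 2 on day 6 and 4 on days 9, 12 and 16. They numbered 2 and 5 in the CD43+ steps to day 9 and to day 12, 1 in each CD43- step, and 4 between day 0 and day 16 CD43- cells. For how far the CD43 difference itself moved, they numbered 2 between days 6 and 9 and 4 between days 9 and 12. Between day 0 and day 16 CD43+ cells DNMT3A (3.24-fold lower) was also above 2-fold, beside TET1, DNMT3B and TET2. The share of all genes called at 2-fold is not given here, so nothing particular to the set is read from these counts. At the 4-fold threshold, the count between days 9 and 12 ranged from 1 to 2 without 1 replicate, with 1 when day 12 CD43- replicate 1 was left out. DNMT3A in CD43- cells from day 12 to day 16 ranged from -0.38 to 0.01 without 1 replicate, and it was 0.01 without day 12 CD43- replicate 1.

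A replicate block over all populations changed neither the direction nor the side of the threshold of any of the 97 results. With 3 replicates in every population such a block leaves the log2 differences as they are, so it could not change a direction. A replicate block within day 6, where the numbers paired the samples, left 3 results no longer passing, DNMT1 (day 6 CD43- against day 4, -0.46, adjusted p = 0.0619), TET2 in CD43- cells from day 6 to day 9 (0.44, adjusted p = 0.128) and the day 12 to 16 change of the TET2 difference (0.53, adjusted p = 0.0536), and TET1 in CD43- cells from day 9 to day 12 passed (0.49, adjusted p = 0.0292). Depth is unknown, all samples share 1 distribution of values, and the 3 replicates of each replicated population, with uneven day 12 CD43- samples, set the precision.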
